A study of Polistes dominula with 96 samples.

Results

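The 100 genes described here are those whose brain transcript level rose most steadily with age in wasps that had lost their queen. They were chosen by the values themselves: CPM values (a gene's counts as a share of its library's total, scaled by TMM factors that even out library composition) were ranked against age in days in the 58 queen removal individuals, and the 100 genes with the most positive Spearman correlation were taken from the 8637 genes with a mean of 5 CPM or more, out of 11140 genes in all. Their relation with age among the queen removal individuals is therefore a description and carries no test. The control workers and the queens took no part in the ranking, and tests are given for them. They did enter the TMM factors and the mean of 5 CPM, which were taken over all 96 wasps. With that mean taken over the 58 queen removal individuals alone, the same 100 genes were chosen. Comparisons that use the queen removal individuals for another trait (day, queen loss, ovarian index) rest partly on the wasps that chose the members and are marked as such.

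The study sequenced single brains of the paper wasp Polistes dominula, whose colonies are founded by a queen and later hold workers that can replace the queen when it is lost. Each laboratory-kept nest, reduced to a single foundress as queen, was either handled as a sham control that retained the queen or lost it to the experimenters. The 96 wasps were 26 queens, foundresses that had overwintered and were months old but have no age in days in the labels, 12 control workers from nests that kept the queen, 24 individuals taken on day 3 after queen removal and 34 taken on day 12. Control workers were 1 to 23 days old (median 11.5) and came from 12 nests, day 3 individuals were 3 to 33 days old (median 13) from 8 nests, and day 12 individuals were 3 to 28 days old (median 18.5) from 10 nests. Of the queens, 14 belonged to control nests and 12 to queen removal nests. The queen removal individuals had been picked to span ovarian development and dominance, so they are no random sample of their nests. Library totals ran from 7933671 to 18124755 counts and were lowest among queens, with a median of 10437136 against 12786639 over all wasps. 1 day 3 individual of 3 days carried in its name the number of control nest 28 but was listed under queen removal nest 38, and it was kept.

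The largest groups of named members by role were parts of the RNA and protein-making machinery. A ribosome is built in the nucleolus, where ribosomal RNA is cut and chemically modified and ribosomal proteins are added. The subunits then leave the nucleus through nuclear pores, and the finished ribosome, helped by initiation, elongation and release factors, reads mRNA into protein. In the brain, protein synthesis is needed both for upkeep of cells and for lasting changes at synapses.

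Of the 100 members, 76 had a symbol or a descriptive product name and 24 had only an identifier. Sorted by those names, 13 were cytosolic ribosomal proteins, 11 were factors of ribosome assembly or ribosomal RNA modification, 3 were translation factors or a tRNA modifying enzyme, and 6 were nuclear pore or nuclear transport proteins. A further 12 belonged to transcription and RNA processing, 6 to nucleotide supply, DNA replication and chromatin, 6 to protein folding and modification, 5 to metabolism, and 7 to membrane traffic, channels, signalling and the cytoskeleton. The remaining named members were 3 zinc finger proteins and 4 others. This sorting was made after the members were known and is a description. Of 22 lists of genes written for the brain and its metabolism, 16 held no member, among them 59 genes of oxidative phosphorylation, 33 of the proteasome, 29 of synaptic vesicle release and 42 neurotransmitter receptors. The members were 100 of the 8637 genes that could be chosen, so at that share lists of this size would hold few or none. Mean level ranged from 6.94 CPM (Nop60B, the enzyme that turns uridine into pseudouridine in ribosomal RNA) to 541.1 CPM (sta, the ribosomal protein SA of the small subunit), with a median of 52.6 CPM against 50.2 CPM over the genes that could have been chosen.

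The correlation with age that chose the members lay between 0.457 and 0.661 (median 0.498), against a median of 0.0207 over the 8637 genes. The 3 members just inside the limit were FAM76A (LOC107074352), LOC107072732 and a histone H2B gene (LOC107068925), each at 0.457. Just outside it were a transcription factor Sp4-like gene (LOC107066821) at 0.456, and LOC107070852 and the ribosomal scaffold protein Rack1, both at 0.455. All 100 members also correlated positively with age in the day 3 individuals alone (median 0.607, n = 24) and in the day 12 individuals alone (median 0.407, n = 34). After each nest's mean was taken away, the correlation was again positive for all 100, with a median of 0.36. These are the wasps that chose the members, so their agreement in sign is partly fixed by the choice.

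The rise was shallow for most members. The slope of log2 level, with day 3 or day 12 in the fit, had a median of 0.16 per 10 days over the members and 0.01 over the 10794 genes tested, and 72 members had slopes under 0.2. Only 7 members reached 0.3 per 10 days. Of all genes tested, 3.26% rose with age at an adjusted p under 0.05 in these individuals, a figure that cannot be read against members chosen on the same values. The steepest slope, 1.28 ± 0.45 (SE), belonged to a cytochrome P450 4C1-like gene (LOC107065361), followed by the uncharacterized LOC107071509 at 0.52 ± 0.12, a ras-interacting protein RIP3-like gene (LOC107067156) at 0.47 ± 0.09, the uncharacterized LOC107073605 at 0.44 ± 0.11 and nan at 0.44 ± 0.08. The slope on day 12 minus that on day 3 had a median of 0.03 per 10 days over the members and 0.01 over all genes, in the same wasps that chose the members.

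The rise was spread over the classes up to 20 to 24 days and was smaller in the last step, which rests on 9 wasps. The queen removal individuals were placed in 5 age classes: 10 wasps of 9 days and younger, 12 of 10 to 14 days, 12 of 15 to 19 days, 15 of 20 to 24 days and 9 of 25 days and older. Relative to the youngest class, the median member stood 0.08 higher on the log2 scale at 10 to 14 days, 0.17 higher at 15 to 19 days, 0.26 higher at 20 to 24 days and 0.28 higher at 25 days and older. From each class to the next, 86, 84, 92 and finally 63 of the 100 members had a higher median. The lowest median fell in the youngest class for 85 members, and the highest fell in the oldest class for 62 and at 20 to 24 days for 36. The youngest class held 8 day 3 and 2 day 12 individuals and the class of 15 to 19 days 2 and 10, so age class and day were not balanced.

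**Figure D1:**
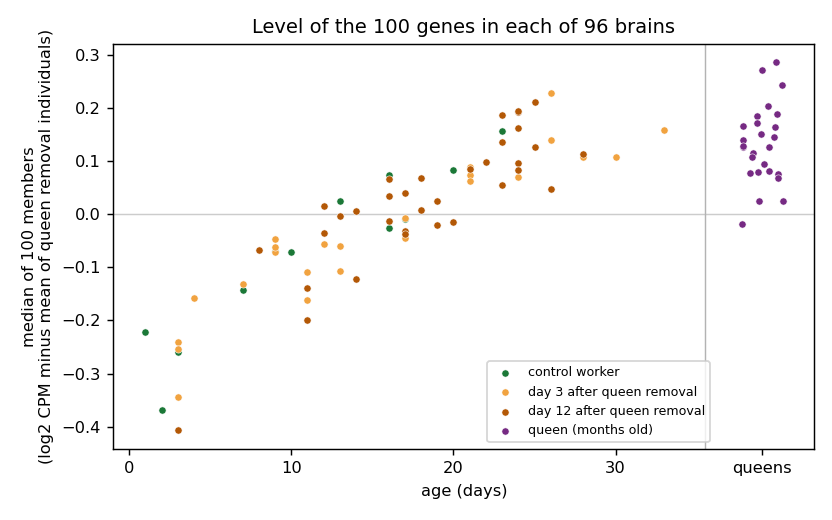
Each point is 1 of 96 brains, placed by age in days (queens, months old and without an age in days, at the right) and by the median over the 100 members of log2 CPM minus the mean of the queen removal individuals. Queen removal individuals of 9 days and younger lie between -0.41 and -0.05 and those of 25 days and older between 0.05 and 0.23; the 6 control workers of 10 days and younger lie between -0.37 and -0.07 and the 6 of 13 days and older between -0.03 and 0.16, and the queens lie between -0.02 and 0.29.

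The plot of the median member by age shows the spread among wasps of like age. This level, in log2 units relative to the mean of the queen removal individuals, ran from -0.41 to -0.05 in the youngest class and from 0.05 to 0.23 in the oldest, and those 2 classes did not overlap. Neighbouring classes overlapped: wasps of 15 to 19 days lay between -0.05 and 0.07 and wasps of 20 to 24 days between -0.02 and 0.19. Within nests, 12 of the 13 nests with at least 3 queen removal individuals of differing age had a median member that rose with age, with slopes from -0.11 to 0.29 per 10 days. The nest with the falling level held 4 individuals of 9 to 13 days, one of the narrowest age ranges. These wasps chose the members, so the gap between the classes and the rise within nests are partly fixed by the choice.

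Glial markers moved with age too. Summed over 5 genes that mark glia, the level was 3060 to 6600 CPM (median 4680) in the youngest queen removal class and 1710 to 2960 CPM (median 2250) in the oldest, and it correlated with age at -0.713 over the 58 individuals. In control workers the glial sum was 3280 to 5980 CPM in the 6 younger and 2110 to 2770 CPM in the 6 older, and in queens it was 1350 to 3310 CPM (median 2220). Taken gene by gene, the median correlation of the 5 with age was -0.439. Against control workers, 2 of the 5 were lower in queens and 0 higher, with a median of -0.03 on the log2 scale. None of the glial genes was at 0 throughout, and none was a member. In whole brains, fewer cells of a type and less RNA per cell cannot be told apart, and the part of the glial fall in the members' rise was not tested. The neuronal sum over 6 genes hardly tracked age (correlation 0.0259), that of 18 muscle genes stood at -0.211, and those of photoreceptors, fat body, haemocytes and glands lay between -0.254 and 0.215, and none of their genes was a member. Marker lists this short would hold few or no members in any case. Library total correlated with age at 0.0471.

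The ribosomal proteins had like slopes. All 13 slopes lay between 0.12 and 0.24 per 10 days among queen removal individuals, and that of sta was the steepest of them. In queen removal individuals, sta had medians of 407.7, 452.0, 505.2, 541.4 and 581.9 CPM from the youngest to the oldest class. RpL14, of the large subunit, had medians of 393.9, 378.1, 433.2, 474.1 and 465.6 CPM over the same classes, so its step came after 14 days. RpL9, also of the large subunit, ranged from 200.4 to 390.3 CPM in the youngest class and from 302.8 to 500.9 CPM in the oldest, and the classes overlapped. Of the 73 cytosolic ribosomal protein genes measured, 71 correlated positively with age in these individuals (median 0.335) and 11 were members, while of 71 mitochondrial ribosomal protein genes 22 correlated positively (median -0.07) and none was a member. A list of 71 genes would hold few or none at the share of members over all genes. The other 2 ribosomal members, LOC107064594 and LOC107064595, both encode ubiquitin fused to the small subunit protein S27a and may share reads, so their split is uncertain.

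Among the assembly factors, the slopes ran from 0.12 to 0.32 per 10 days and the levels were low. Nop60B ranged from 2.86 to 5.998 CPM in the youngest queen removal class and from 6.42 to 9.80 CPM in the oldest, so no wasp of the youngest class reached the oldest. nop5, a core protein of the particles that methylate ribosomal RNA, went from a median of 12.2 CPM in the youngest class to 18.2 CPM in the oldest and rose at every step. dbe, a component of the processome that trims small subunit RNA, went from 9.45 CPM in the youngest class to 13.6 CPM at 20 to 24 days and 13.4 CPM at 25 days and older. The other members of this group were Gar1, a partner of Nop60B, Non3, a factor of large subunit assembly, NEP1 (LOC107072053) and the mitochondrial Mrm2, which methylate ribosomal RNA, a GTPase related to elongation factors that readies the large subunit (LOC107066521), transducin beta-like protein 3 (LOC107066161), an L1 domain protein (LOC107067962) and the nuclear FK506-binding protein Fkbp39.

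The highest correlation with age, 0.661, belonged to eRF1, the factor that releases a finished protein at a stop codon. Its medians were 99.5, 109.5, 118.7, 116.7 and 122.3 CPM over the classes, so it had most of its rise before 20 days, and its slope was only 0.11 ± 0.02 (SE) per 10 days. Next came Nup133, a scaffold protein of the nuclear pore, with 9.50 to 17.2 CPM in the youngest class and 17.3 to 24.6 CPM in the oldest. Those ranges did not overlap. The third was LSm2 (LOC107073931), part of the ring that binds the end of U6 RNA in splicing, with medians of 24.6, 28.3, 30.5, 33.9 and 35.7 CPM. Iyd, which in mammals recovers iodide from iodotyrosines, came next and had medians of 17.1, 17.9, 23.7, 25.0 and 24.3 CPM, with its step between 10 to 14 and 15 to 19 days.

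**Figure D2:**
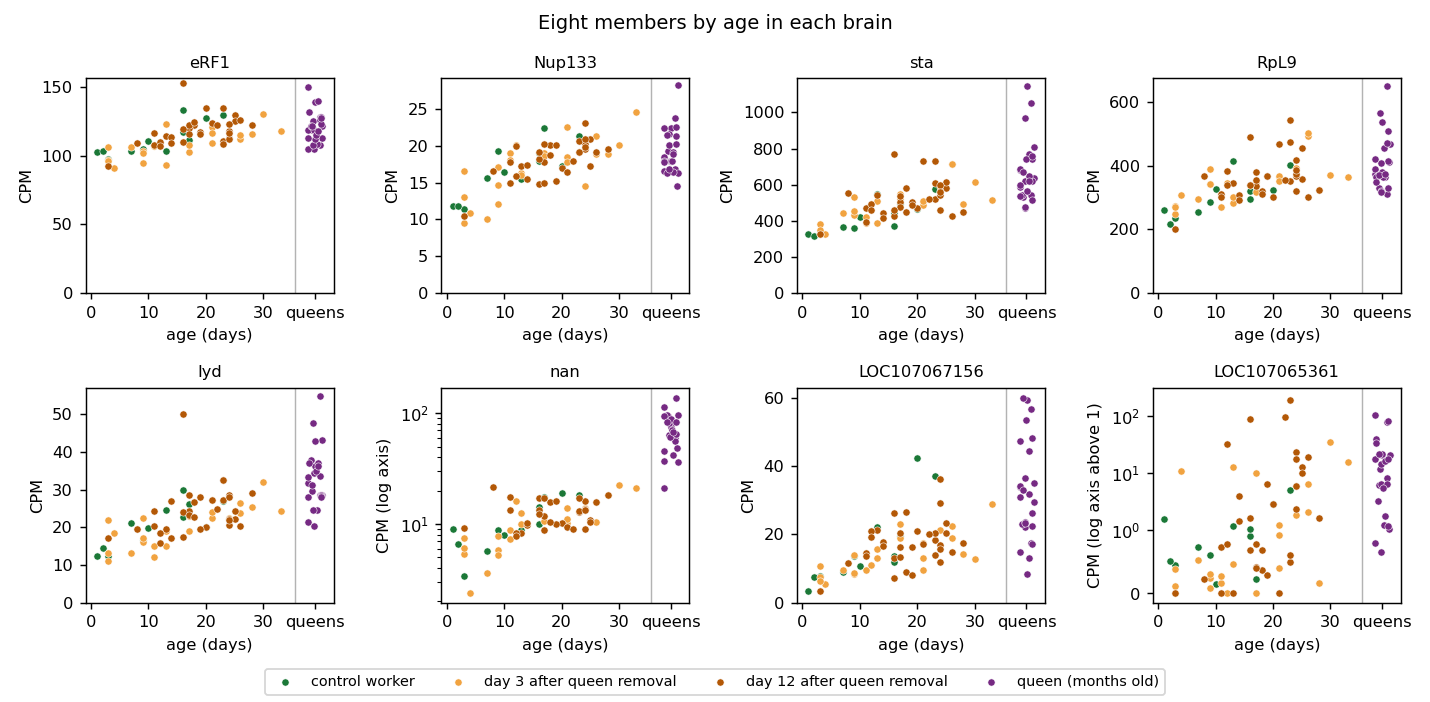
CPM of 8 members in each brain against age in days, with queens at the right of each panel; the vertical axis starts at 0 except for nan, on a log axis, and LOC107065361 (cytochrome P450 4C1-like), on an axis that is logarithmic above 1 CPM. eRF1, Nup133, sta, RpL9 and Iyd climb gradually with overlap between neighbouring ages, nan reaches at most 22.5 CPM in any worker while queens lie between 21.1 and 137.6 CPM, and LOC107065361 is spread from 0 to 196.3 CPM among the queen removal individuals.

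The control workers ask whether the same genes followed age where the queen was still present, in wasps that were not part of the ranking. The slopes were positive for 95 of 100 members, against 52.7% of all genes tested, and their median was 0.20 per 10 days against 0.01 over all genes. 4 members rose at an adjusted p under 0.05 by edgeR's quasi-likelihood test on the 12 workers, where 0.102% of all genes tested did, and none fell, where 0.537% of all genes did. At an unadjusted p under 0.05, 59 members rose and 0 fell, against 7.34% of all genes that rose. DESeq2 called 28 members rising, where 1.48% of all genes rose by that tool, and limma voom 5, where 0.12% did, and neither called any falling (2.26% and 0.445% of all genes). In 6 members, where 0.259% of all genes tested did so, the 6 workers of 13 days and older all lay above the 6 of 10 days and younger: LSm2, RpS9, the initiation factor subunit eIF3b, MTO1, LOC107071509 and LOC107073605.

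The 4 members that rose had these values. The RIP3-like gene (LOC107067156) stood at 3.47 to 13.8 CPM (median 8.32) in the younger control workers and 11.9 to 42.3 CPM (median 20.8) in the older, a slope of 1.26 ± 0.18 (SE) on the log2 scale per 10 days (edgeR adjusted p = 0.00522). Only the edges of the age groups overlapped. nan, which in Drosophila is a subunit of a channel used in hearing, stood at 3.39 to 9.09 CPM (median 7.26) in the younger and 8.76 to 19.0 CPM (median 16.0) in the older, a slope of 0.80 ± 0.16 (edgeR adjusted p = 0.0479). The uncharacterized LOC107069635 stood at 15.2 to 33.1 CPM in the younger and 31.7 to 45.5 CPM in the older, a slope of 0.56 ± 0.10 (edgeR adjusted p = 0.0193). The groups of both genes overlapped narrowly. MTO1 (LOC107065031), which modifies mitochondrial tRNA, stood at 43.3 to 59.4 CPM in the younger and 60.1 to 70.3 CPM in the older, with no overlap, a slope of 0.28 ± 0.05 (edgeR adjusted p = 0.0261).

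These calls rested on few wasps. Left out in turn, control workers 4, 9 and 10 each left 1 member called, workers 3, 6, 7 and 12 each left 2, and worker 11 left 11. Of 10794 genes tested, 3, 2 and 2 rose without workers 4, 9 and 10. Without workers 3, 6, 7 and 12, 6, 6, 3 and 7 genes rose, and without worker 11, 25 did. LOC107067156 passed without any single worker (adjusted p at most 0.0359), whereas nan failed in 10 of the 12 fits, MTO1 in 7 and LOC107069635 in 5. With the sampling day of the nest in the fit, 4 members were again called, where 0.102% of all genes rose, and 97 slopes were positive. In that fit nan missed the threshold (edgeR adjusted p = 0.0924).

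Among the ribosomal proteins, all 13 had positive slopes in the control workers (0.05 to 0.35 per 10 days), 8 at an unadjusted p under 0.05 and 0 after adjustment. sta stood at 313.6 to 422.3 CPM in the younger control workers and 373.2 to 578.7 CPM in the older (slope 0.35 ± 0.08, edgeR adjusted p = 0.0616). All 11 assembly factors had positive slopes too (median 0.23), 9 of them at an unadjusted p under 0.05, and so had all 6 nuclear pore and transport proteins (median 0.19). Nup133 stood at 11.4 to 19.3 CPM in the younger and 15.4 to 22.4 CPM in the older (slope 0.39 ± 0.09, adjusted p = 0.0682 by edgeR), and Nup160, of the same pore subcomplex, had a slope of 0.35 ± 0.08 (adjusted p = 0.0585 by edgeR). Over all 73 cytosolic ribosomal protein genes, 69 had positive slopes in the control workers, none passed after adjustment, and the median was 0.13.

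The 5 members with slopes below 0 in the control workers were Hel25E, a helicase of mRNA export, Sidpn, a repressor of the hairy family, homocysteine S-methyltransferase 1-like (LOC107066927), FAM76A and the uncharacterized LOC107065425. The lowest slope was -0.16 ± 0.09 for LOC107065425, at 50.5 to 71.7 CPM in the younger workers and 42.4 to 62.8 CPM in the older. None of the 5 had an unadjusted p under 0.05.

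**Figure D3:**
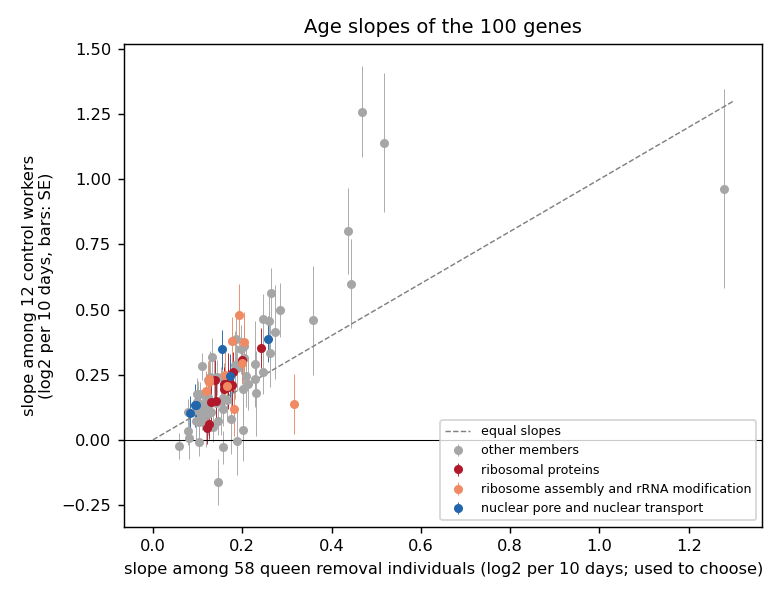
Slope of log2 level per 10 days for each of the 100 members among the 58 queen removal individuals (horizontal, the values behind the choice) and among the 12 control workers (vertical, bars are SE), with a dashed line of equal slopes. In control workers 95 members lie above 0; all 13 ribosomal proteins, 11 assembly factors and 6 nuclear pore and transport proteins are among them.

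Members were also compared between queen removal individuals and control workers at the same age. The members were chosen on these queen removal individuals, so the counts are set beside those of all genes as a description. With age in the fit, none was higher on day 3 than in control workers and 1 was lower, where 1.27% and 0.76% of all genes tested were. On day 12 none was higher or lower (1.02% and 0.139% of all genes). Day 12 and day 3 did not differ in any member (0.0463% in each direction). At an unadjusted p under 0.05 the counts were 18 members for day 3, 13 for day 12 and 10 between the days, where 18.8%, 16.3% and 8.69% of all genes passed. Of those members, 3 were above 0 on day 3 and 3 on day 12, where 8.69% and 9.01% of all genes were. limma voom called 0 members in either comparison with control workers, and with nest as a random effect it called 0 between the days. The median difference over members was -0.03 on day 3 and 0.00 on day 12 on the log2 scale. Above 0 were 38 members on day 3 and 49 on day 12, where 48.7% and 48.8% of all genes were. Without age in the fit, 2 members were higher on day 12 than in control workers, where 78 of 10794 genes were.

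The member that was lower on day 3 was Fkbp39. It stood at 23.3 to 40.2 CPM (median 31.97) in the day 3 individuals and 27.6 to 45.99 CPM (median 37.1) in the control workers, overlapping widely, and was lower by -0.20 ± 0.06 on the log2 scale at the same age (edgeR adjusted p = 0.0447). It missed the threshold with DESeq2 size factors, with limma voom, with nest as a random effect and without the wasp named for nest 28 (adjusted p of 0.053 to 0.13).

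Ovarian development rose with age in these individuals (correlation 0.433, n = 58), so both were put in the same fit. These are again the wasps that chose the members by age, and the counts are not read against those of all genes. 1 member rose with the ovarian index at the same age, where 0.102% of all genes tested did, and none fell, where 0.0463% did; 4 had an unadjusted p under 0.05 (5.47% of all genes), and limma voom with nest as a random effect also called 1 rising and 0 falling. The member that rose was the cytochrome P450 4C1-like gene (LOC107065361), from a family of enzymes that oxidise lipids, hormones and foreign compounds. Its level changed by 2.18 ± 0.33 (SE) on the log2 scale per SD of the ovarian index (edgeR adjusted p = 8.35e-05).

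That gene was the most uneven of the members. It stood at 0 to 35.8 CPM (median 0.435) in the day 3 individuals, 0 to 196.3 CPM (median 1.53) in the day 12 individuals and 0.145 to 5.05 CPM (median 0.819) in the control workers. The lowest of the queens was at 0.660 CPM and their median was 13.1 CPM, with a highest value below that of the day 12 individuals. It exceeded 10 CPM in 13 of the 58 queen removal individuals, 14 of the 26 queens and 0 of the 12 control workers, and 7 wasps had no count at all. By class its medians among queen removal individuals were 0.230, 0.601, 0.687, 2.30 and 9.95 CPM, the greatest rise of any member. Its slope in the control workers was 0.96 ± 0.38 per 10 days, which did not pass adjustment (edgeR adjusted p = 0.265).

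Queens ask where the reproductive caste stood on the scale set by worker age. By edgeR, 53 members were higher in queens than in control workers, where 11.8% of all genes tested were, and none was lower, where 11.1% of all genes were. At an unadjusted p under 0.05, 66 members were higher, against 17.3% of all genes, and 1 was lower. DESeq2 called 61 higher, where 13.4% of all genes were by that tool, and limma voom 54, where 11.1% were, and neither called any lower. The median difference was 0.21 on the log2 scale over members and -0.01 over all genes, and 87 members were above 0. Only 3 of the 53 passed a 2-fold difference: the P450 4C1-like gene, nan and LOC107071509.

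Queens were months old and every worker was far younger, so caste and age cannot be told apart. In a fit of the queens and the 12 control workers alone, 46 members were higher in queens, where 1114 of 10794 genes were. None was lower, where 992 genes were. Against the 6 control workers of 13 days and older alone, 13 members were higher in queens, where 3.05% of all genes were, and 1, a zinc finger protein 37-like gene (LOC107070095), was lower, where 2.71% were. That fit held fewer workers, and the share of all genes fell as well, so the part of worker age in the count was not tested. By median, queens stood 0.08 above those older workers on the log2 scale and were above them in 69 members. The count was 28 with the queens of queen removal nests alone (4.85% of all genes), 38 with those of control nests (9.76%) and 29 with nest as a block (5.92%), which uses the 10 nests that gave both a queen and a control worker. In none of these was a member lower, where 4.05%, 8.59% and 5.41% of all genes were. Muscle markers moved with this comparison as well: summed over 18 genes, none of them a member, they stood at 3780 to 49400 CPM (median 17900) in queens and 2010 to 17700 CPM (median 10300) in control workers, and 9 of the 18 were higher in queens and 0 lower. This was not particular to queens: the median sum was 17200 CPM in day 3 and 15800 CPM in day 12 individuals. None of the 18 was at 0 throughout, and their part in the members' difference was not tested.

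On the scale of the queen removal age classes, the queens' median lay below the youngest class in 2 members, between the youngest and the oldest in 54 and above the oldest in 44. The median member stood 0.27 above the youngest class and 0.02 below the oldest, on the log2 scale. These classes chose the members, which favours genes low in the youngest class and high in the oldest, so the placement is a description. The spread over queens was wide, from -0.02 to 0.29 (median 0.13), and overlapped every class from 10 to 14 days upward. The overlap with the class of 10 to 14 days, whose highest wasp stood at 0.0154, rested on the lowest queen alone. The next lowest queen stood at 0.0254.

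**Figure D4:**
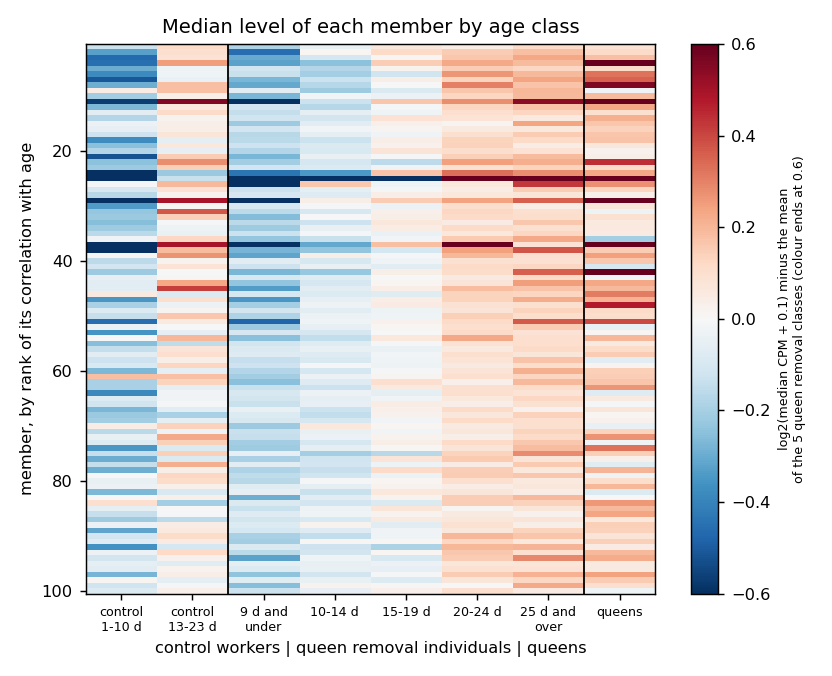
Each row is a member, in the order of its correlation with age, and each column a group of wasps: control workers of 1 to 10 and 13 to 23 days, the 5 queen removal age classes and queens. Colour gives log2 of the median CPM, with 0.1 added, minus the mean of the 5 classes; most rows pass from blue to red in both worker sets, and the queen column is above the oldest class in 44 members.

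nan set queens apart most clearly. It stood at 21.1 to 137.6 CPM (median 72.8) in the 26 queens and 3.39 to 19.0 CPM (median 8.97) in the 12 control workers, a 6.71-fold difference (2.75 ± 0.23 on the log2 scale, edgeR adjusted p = 9.98e-17), and every queen lay above every control worker. The highest of any worker, 22.5 CPM, exceeded only the lowest of the queens. Among queen removal individuals the class medians went from 5.91 to 15.8 CPM, so the oldest workers stayed far below the queens' median. 2 other members carry names tied to cilia, in which the channel of nan works in Drosophila. The kinesin-like KIF9 gene (LOC107074690) was higher in queens by 0.58 ± 0.15 (edgeR adjusted p = 0.00273), while the cilium base protein Mks1 (0.13 ± 0.10) did not pass.

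1 other member had every queen above every control worker (the share over all genes was 0.102%, 2 members in all). This was an FXR2-like RNA-binding gene (LOC107073681), of the fragile X family, whose founding member restrains translation in neurons, at 29.9 to 44.6 CPM (median 37.0) in queens and 20.2 to 28.8 CPM (median 24.7) in control workers. The difference was 0.61 ± 0.07 on the log2 scale (edgeR adjusted p = 1.82e-10). Its class medians among queen removal individuals rose from 23.1 to 28.4 CPM, so the queens' lowest value was above the median of the oldest workers. The highest queen removal individual, at 37.04 CPM, lay well within the queens' range.

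Metabolic enzymes followed. Pyrroline-5-carboxylate reductase (LOC107072852), the last enzyme of proline synthesis, stood at 53.2 to 122.9 CPM (median 83.8) in queens and 32.9 to 62.4 CPM (median 45.4) in control workers, 1.76-fold higher (0.81 ± 0.11, edgeR adjusted p = 4.83e-09). Its slope with age in the control workers was 0.04 ± 0.12. Iyd stood at 20.4 to 54.8 CPM in queens and 12.5 to 30.0 CPM in control workers (0.69 ± 0.13, edgeR adjusted p = 4.04e-05), and missed the threshold against the older workers alone (0.41, adjusted p = 0.0821). The P450 4C1-like gene had the greatest difference of all, 4.02 ± 1.02 on the log2 scale (edgeR adjusted p = 0.00216), with the wide overlap given above.

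Of the 13 ribosomal proteins, 9 were higher in queens and all 13 were above 0 (median 0.27). Over all 100 members 53 were higher, and over all genes tested 11.8% were. sta stood at 472.7 to 1147 CPM (median 630.2) in queens and 313.6 to 578.7 CPM (median 397.7) in control workers, 1.61-fold higher (0.69 ± 0.11, edgeR adjusted p = 8.25e-07). RpL9 stood at 309.8 to 651.1 CPM in queens and 217.1 to 415.6 CPM in control workers (0.42 ± 0.09, edgeR adjusted p = 0.000543). Both overlapped between the groups. Against the older control workers alone, RpL9 missed the threshold (0.24, adjusted p = 0.227). Of all 73 cytosolic ribosomal protein genes, 31 were higher in queens and 0 lower, where 11.8% and 11.1% of all genes tested were.

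By count, fewer of the assembly factors passed in queens: 2 of 11 were higher, LOC107066521 (0.22 ± 0.07) and LOC107066161, where 11.8% of all genes tested were. Above 0 were 9 of the 11, with a median of 0.20 against 0.27 for the ribosomal proteins. Whether the groups differ was not tested. Over a list of 45 assembly genes written after the members were seen, 7 were higher in queens, 3 lower, and the median was -0.01. Of the 6 nuclear pore and transport members, Nup54 and Nup214 were higher in queens (0.26 and 0.15), and all 6 were above 0.

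All 6 members of protein folding and modification were higher in queens, by 0.14 to 0.34 on the log2 scale, where 53 of all 100 members and 11.8% of all genes were. CkIIalpha, the catalytic subunit of casein kinase II, stood at 238.3 to 371.1 CPM (median 286.3) in queens and 200.5 to 265.0 CPM (median 228.3) in control workers (0.34 ± 0.05, edgeR adjusted p = 5.4e-07). The others were CCT2, a subunit of the ring that folds actin and tubulin, Stt3B, which attaches sugars to proteins in the endoplasmic reticulum, the NatB subunit psidin, which helps to acetylate protein starts, the arginine methyltransferase Art7 and a LON peptidase domain protein (LOC107070052). In transcription and RNA processing 7 of 12 were higher, among them MED14 of the Mediator complex (0.28 ± 0.05) and Pcif1, which binds the tail of RNA polymerase II (0.25). Of the 24 members with no descriptive name 11 were higher, led by LOC107071509 at 15.4 to 64.2 CPM in queens and 3.14 to 28.6 CPM in control workers (1.18 ± 0.24, edgeR adjusted p = 0.000147).

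**Figure D5:**
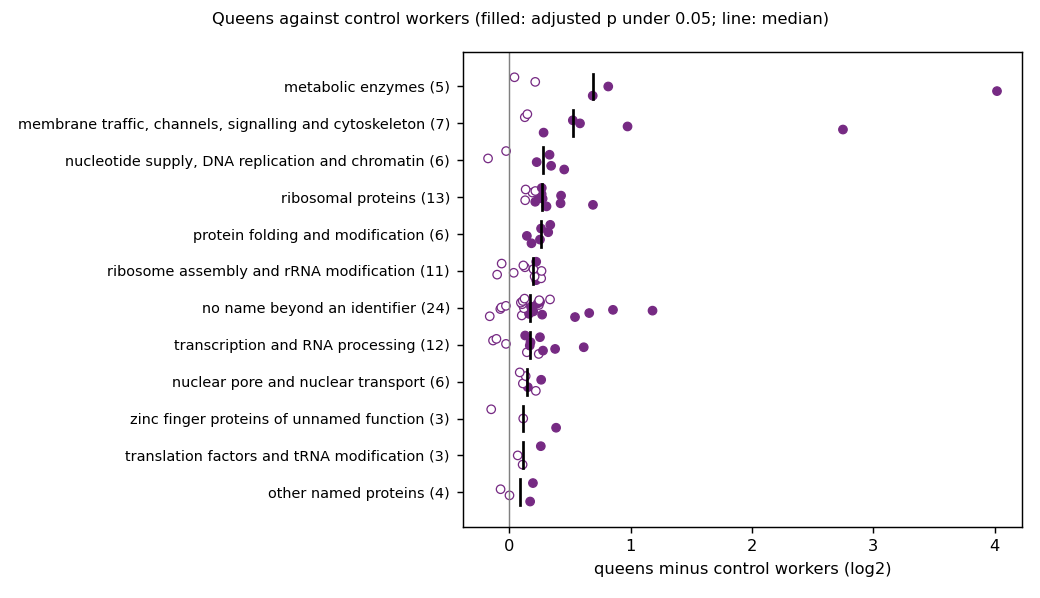
Log2 difference between 26 queens and 12 control workers for each member, in rows by role with the number of members, filled where the edgeR adjusted p is under 0.05; the black line is the median of the role. 87 of 100 points lie to the right of 0, and the values run from -0.18 to 4.02, with 53 of 100 filled and the P450 4C1-like gene and nan far to the right.

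The members did not vary as 1 block among queens, whose values did not enter the ranking. Over the 26 queens the median correlation between pairs of members was 0.0783, against -0.0024 between all pairs of the 8637 genes. Pairs among 11 ribosomal proteins had a median of 0.821, so these moved as a set from queen to queen, and pairs among the other 89 members had 0.0783. Points in these correlations share libraries and depth, and no test is given.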

How the data were processed

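Brain RNA of 96 single wasps was sequenced as paired reads. Per the study's methods, the authors removed ribosomal RNA reads with SortMeRNA, trimmed with Trimmomatic (0.36 in the submitters' processing notes), mapped to the transcripts of the P. dominula annotation 1.0 with STAR (2.7) at default settings and assembled transcripts with StringTie2; the deposited values are raw whole-number counts per gene, with no normalization. Short paralogs can therefore share or split reads. 194 of 11335 entries repeated a gene ID and were summed, giving 11140 genes; an entry with no gene name (0.0217% to 0.0706% of counts) was left out. Symbols came from a RefSeq table (4065 genes) and product names from the study's tables. Ages came from the labels, and equalled those of the study's table; nest and ovarian index came from that table.

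Genes with more than 20 counts summed over a group were kept (10794), TMM factors were computed, and tests used edgeR 4.0.16 (quasi-likelihood, Benjamini-Hochberg over all genes kept, threshold 0.05) in R 4.3.3, with DESeq2 1.42.0 and limma 3.58.1 as alternatives and Python 3.11.15 packages for summaries. Queens against control workers came from 1 fit of all 4 groups; slopes are per 10 days. p-values measure spread between wasps; queen removal individuals of 1 nest are not independent. No library was a copy of another (highest correlation 0.98). Scripts were tested on simulated data. The members, lists and sorting by role were chosen with earlier results of these data known. Named genes were those of highest correlation with age, of smallest p in control workers, of greatest difference in queens, those called in the other tests, and up to 4 of each list; a few further members were named after their values were seen.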

Additional observations from a re-analysis of the deposited data

How the results depend on the processing

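The choice of members depended on the scaling and the wasps used: of the 100, 71 were chosen again from plain CPM, 94 with DESeq2 size factors, 87 and 97 with a minimum of 1 or 10 CPM, 78 by Pearson correlation, 74 beyond the ovarian index and 90 without the wasp named for nest 28, but 28 after nest means were taken away, 40 from day 3 and 21 from day 12 individuals alone. The 4 members that rose with age in control workers became 28 by the DESeq2 test, 16 at a threshold of 0.1 and 19 in 1 fit with the queen removal individuals, and 1 to 11 when control workers were left out in turn. None fell in any of these. Of 10794 genes tested, 160 rose by DESeq2, 51 at a threshold of 0.1 and 59 in the fit with the queen removal individuals. The 53 members higher in queens became 28 with the queens of queen removal nests alone, 29 with nest as a block and 13 against the control workers of 13 days and older, where 1 was lower. The 1 member lower on day 3 became 0 with DESeq2 size factors, without an age term, with limma voom, with nest as a random effect and without the wasp named for nest 28. Without an age term 2 were higher on day 12 than in control workers, where 78 of 10794 genes were.

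Replicate numbers are shared between groups but only as numbers: deviations of same-numbered queens and control workers correlated at -0.192 to 0.474 (12 pairs), and those of the other groups at -0.304 to 0.326. With the replicate number as a block, 28 members were higher in queens, and 0 were lower on day 3, where 957 and 57 of 10794 genes were.

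Over 26 single results followed through 334 alternative fits, 289 kept direction and threshold, 45 lost the threshold and none changed sign. The 12 control workers limit every statement on age where the queen was present.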
